A study of Rattus norvegicus with 60 samples.

Results

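Frontal cortex mRNA of rats given the lowest dose of deltamethrin was compared with that of rats given the lowest dose of permethrin, over all 31042 probe sets of a whole-genome rat array. The 16 arrays of the comparison, 8 rats given 0.3 mg/kg deltamethrin and 8 rats given 1 mg/kg permethrin, were taken by their dose labels from the 60 arrays of the study, which also holds 12 vehicle rats and, at each of 2 higher doses of either compound (1 or 3 mg/kg deltamethrin, 10 or 100 mg/kg permethrin), 8 rats. All were male Long-Evans rats, 62 to 64 days old, and each had received a single oral gavage in corn oil 6 h before the cortex was taken; each array carried RNA of 1 rat. The doses differ in mg/kg, and both lie under the dose that the study names as without behavioral effect for its compound. Every difference below is deltamethrin minus permethrin on the log2 scale, so 1 unit is a doubling of the signal and a positive value means higher after deltamethrin.

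Pyrethroids are insecticides that slow the closing of voltage-sensitive sodium channels in neurons, which prolongs the sodium current and makes the cell more excitable. Deltamethrin carries an α-cyano group, the mark of type II pyrethroids, whereas permethrin, a type I compound, does not. In cortical neurons, firing and calcium entry switch on immediate early genes such as Fos, Egr1 and the Nr4a receptors, and later effector genes such as Bdnf, so these transcripts are widely used as a readout of neuronal activity.

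Markers of cortical neurons were present in both groups: Slc17a7, the vesicular glutamate transporter of cortical pyramidal cells, averaged 12.5 in deltamethrin rats, 12.4 in permethrin rats and 12.6 in vehicle rats on the log2 scale. The 60 arrays fell into 2 sets on their first 2 principal components, 24 arrays called array group A here and 36 called array group B. These sets match the replicate numbers exactly (1 to 3 of every dose group and 1 to 6 of vehicle in array group A), so each compound has 3 rats in array group A and 5 in array group B. The sets have the sizes of the array cohorts of the study, which were exposed on separate days, but no label names a cohort, so this match is one of numbers only. Array group and exposure day cannot be told apart here. Of the 60 arrays 15, of which 14 are in array group A, stood apart along the first component, which held 58.0% of the variance. They include replicate 1 of deltamethrin, replicates 1 and 2 of permethrin and 2 vehicle arrays, so 2 of the 3 permethrin arrays of array group A stand apart against 1 of the 3 deltamethrin arrays. The part of RNA quality, dissection or array handling in this was not tested. In bulk tissue a lower signal from fewer cells of a type cannot be told apart from less RNA per cell.

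**Figure D1:**
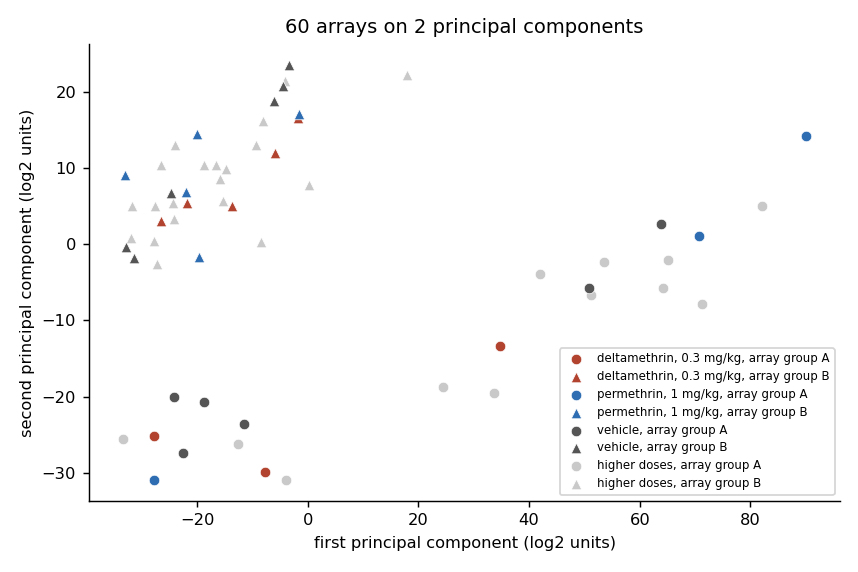
Each point is 1 of the 60 arrays on the first (x axis) and second (y axis) principal component of the log2 values; color gives the group and shape the array group (circles A, triangles B). The 15 arrays that stand apart lie to the right, and replicates 1 and 2 of permethrin are among them.

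No probe set differed between the lowest dose of deltamethrin and that of permethrin after adjustment for multiple testing: 0 of 31042 (0%) had an adjusted p under 0.05 in limma's moderated test, and the lowest adjusted p was 0.980. At an unadjusted p under 0.05 there were 747 probe sets (2.41%), 470 higher (1.51%) and 277 lower (0.892%) after deltamethrin. The differences were small. Their median size was 0.063 log2 units, their percentiles 1 and 99 were -0.22 and 0.32, only 18 probe sets reached 0.5, and 1, that of Avp, reached 1. The 95% interval of the difference stayed within 0.5 log2 units of 0 for 26813 probe sets (86.4%) and within 1 for 30892 (99.5%), so for most transcripts a difference beyond the wider limit was outside what these rats allow, while the median half-width of 0.18 leaves smaller ones undecided.

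The number of probe sets at an unadjusted p under 0.05 rested on single rats. It was 243 without permethrin replicate 2, 386 without permethrin replicate 1 and 488 without deltamethrin replicate 2, against 1646 without permethrin replicate 3, 1354 without permethrin replicate 8 and 1242 without deltamethrin replicate 7. In array group A alone, with 3 rats against 3, 3550 probe sets (11.4%) had an unadjusted p under 0.05 and 1 passed adjustment (0.00322%), that of Myo15b, which was 0.62 lower (adjusted p = 0.0211). Its mean was 7.35 in permethrin rats of array group A, where 2 of the 3 arrays stand apart. In deltamethrin rats of array group A it was 6.73, and in array group B 6.76 for deltamethrin and 6.74 for permethrin. In array group B alone, with 5 rats against 5, the number of probe sets at an unadjusted p under 0.05 was 390 (1.26%), with none past adjustment. Without the arrays that stand apart it was 568 (1.83%), and only 85 of these were among the 747. The difference between the compounds itself differed between the array groups at an adjusted p under 0.05 for 4 probe sets (0.0129%), and at an unadjusted p under 0.05 for 4969 (16.0%). The rats of the permethrin group also varied more: the median SD between rats was 0.146 for deltamethrin, 0.196 for permethrin and 0.179 for vehicle, and without the arrays that stand apart it was 0.136, 0.129 and 0.151 in that order.

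The widest separation was that of Avp, which encodes the precursor of vasopressin, a peptide hormone made by large neurons of the hypothalamus and released from the posterior pituitary. Oxt, its neighbor on the chromosome, encodes the precursor of oxytocin and is made by a related set of hypothalamic neurons; it was taken up here after its values were seen, because it varied with Avp. In the RefSeq annotation of build GRCr8 both genes lie on chromosome 3, Avp at chr3:138246544-138248522 on the minus strand and Oxt at chr3:138235754-138236594 on the plus strand. The 250 bases before each start site are shown because both transcripts had lower means after deltamethrin, with the E-box CACGTG in capitals for Avp (chr3:138248523-138248772) and GGTCA, the core of the nuclear receptor half-site, on either strand in capitals for Oxt (chr3:138235504-138235753), both read 5′ to 3′ on the gene's own strand.
Avp: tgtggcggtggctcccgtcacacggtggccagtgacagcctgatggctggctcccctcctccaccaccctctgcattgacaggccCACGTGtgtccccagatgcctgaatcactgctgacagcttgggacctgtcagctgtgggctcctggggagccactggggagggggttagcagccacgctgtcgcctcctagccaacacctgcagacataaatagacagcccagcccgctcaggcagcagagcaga
Oxt: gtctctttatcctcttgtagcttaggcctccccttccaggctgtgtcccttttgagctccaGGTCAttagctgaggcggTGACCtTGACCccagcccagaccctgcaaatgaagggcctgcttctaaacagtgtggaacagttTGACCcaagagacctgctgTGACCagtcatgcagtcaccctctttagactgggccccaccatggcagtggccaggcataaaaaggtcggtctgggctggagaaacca
CACGTG was found once before Avp and not before Oxt, and 5.59% of 33469 RefSeq windows of the same length hold it on either strand. GGTCA was found 5 times before Oxt and not before Avp, and 35.4% of windows hold it at least once. These matches describe the letters only.

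Avp ran from 7.33 through a median of 7.55 to 7.93 in deltamethrin rats, from 8.01 through 8.37 to 9.87 in permethrin rats, and from 7.58 through 7.67 to 9.01 in vehicle rats. Every deltamethrin rat was below every permethrin rat, whereas vehicle rats spanned both: replicates 3, 4 and 5 of vehicle, the last 2 of them on arrays that stand apart, lay between 8.88 and 9.01, and the lowest 6 vehicle rats under 7.7. The means were 7.60 ± 0.22 for deltamethrin, 8.66 ± 0.70 for permethrin and 8.06 ± 0.59 for vehicle (SD, n = 8, 8 and 12), a difference of -1.06 ± 0.29 (SE; 95% interval -1.65 to -0.47) between the compounds. This is a signal 2.08 times as high in permethrin rats, at an unadjusted p of 0.000677 and an adjusted p of 0.980. The difference was -0.64 in array group A (p = 0.0792), -1.31 in array group B (p = 0.00166) and -1.21 without the arrays that stand apart, and it stayed between -1.15 and -0.88 when any 1 rat was left out. Of the 31042 probe sets, 2 separated all 8 deltamethrin rats from all 8 permethrin rats in the lower direction (0.00644%). None did so in the higher direction. How many would do so by chance was not computed, so this separation is described, not tested. Beside Avp, the other was 1381947_at, which has no gene name and differed by -0.08, at levels of 4.35 and 4.43.

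Oxt ran from 7.66 through 8.60 to 9.06 in deltamethrin rats, from 8.33 through 9.19 to 10.98 in permethrin rats, and from 7.59 through 8.58 to 11.09 in vehicle rats. The groups overlapped, although no deltamethrin rat reached the permethrin mean of 9.42. The difference was -0.94 ± 0.40 (SE; 95% interval -1.73 to -0.14; unadjusted p = 0.0217), and it was -0.63 in array group A, -1.12 in array group B and -1.12 without the arrays that stand apart. Without permethrin replicate 8 it was -0.71, the closest to 0 of the values with 1 rat left out, with an unadjusted p of 0.0781.

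The vehicle mean fell between those of the compounds for both peptides. Avp was 0.46 lower in deltamethrin rats than in vehicle rats (p = 0.0916) and 0.60 higher in permethrin rats than in vehicle rats (p = 0.0300), both unadjusted; for Oxt the values were -0.51 (p = 0.162) and 0.42 (p = 0.247). With rising dose, mean Avp was 7.60, 8.11 and 8.33 after deltamethrin (0.3, 1 and 3 mg/kg), higher at each dose, and 8.66, 8.03 and 8.07 after permethrin (1, 10 and 100 mg/kg), where the lowest dose had the highest mean, each with an SD of 0.22 to 0.78. Mean Oxt had the same order, with 8.48, 8.81 and 9.09 after deltamethrin and 9.42, 8.85 and 9.13 after permethrin, each with an SD of 0.49 to 1.03. A trend with dose was not tested. Avp and Oxt varied together over the 60 rats (Pearson r = 0.881, Spearman rho = 0.887). Pearson r was 0.891 in array group A, 0.904 in array group B and 0.855 without the 2 rats farthest from the median of Avp. Oxt was taken up because of this relation, so these values describe it and do not test it. No other relation of this kind was computed.

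**Figure D2:**
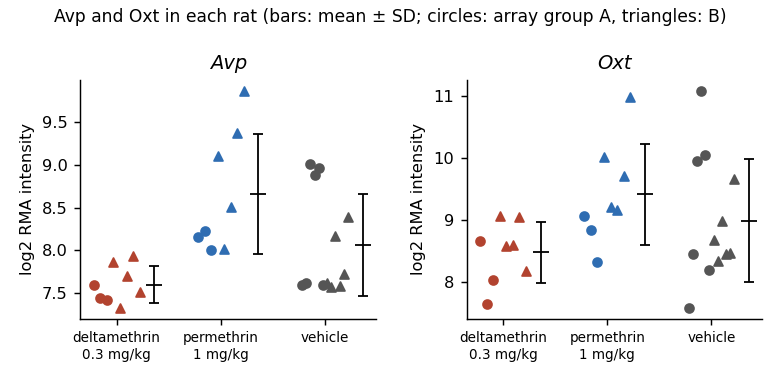
Log2 RMA intensity (y axis) of Avp and Oxt in each deltamethrin, permethrin and vehicle rat (points; circles array group A, triangles array group B), with the mean ± SD of each group as bars. All 8 deltamethrin rats lie below all 8 permethrin rats for Avp, between 7.33 and 7.93 against 8.01 and 9.87.

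Other markers of hypothalamic neurons, listed after these values were seen, did not separate the groups in this way. Pmch, the melanin-concentrating hormone precursor, differed by -0.05, Hcrt, the orexin precursor, by -0.14, Trh, the thyrotropin-releasing hormone precursor, by -0.13, and Sim1, a transcription factor needed for the paraventricular and supraoptic nuclei, by -0.07 at a level near 4.4. For Sim1 the unadjusted p was 0.0701, with -0.060 in array group A and -0.075 in array group B. The largest of the others were Cartpt at -0.18 (-0.60 in array group A, 0.071 in array group B) and Gal at -0.17. Gal had an unadjusted p of 0.0846, with -0.18 in array group A and -0.16 in array group B. All 11 measured genes of that list, Avp and Oxt among them, were lower on average after deltamethrin, with a median of -0.13. Only Avp and Oxt had an unadjusted p under 0.05. The summed signal of the list, on the linear scale, ran from 1306 to 2380 in deltamethrin rats, from 1689 to 4587 in permethrin rats and from 1406 to 4735 in vehicle rats. This sum includes Avp and Oxt, so it is not separate from their values. The part of tissue from outside the cortex in the Avp and Oxt values was not tested.

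The 12 named genes with the lowest p among those higher after deltamethrin differed by 0.13 to 0.32 log2 units, and the 12 among those lower, Avp apart, by at most 0.25. They were picked on these values and are described, not tested. Clta, clathrin light chain A of coated vesicles, had the lowest p of all probe sets (0.000373). Its signal ran from 11.89 through 11.97 to 12.10 in deltamethrin rats, from 11.52 through 11.87 to 11.95 in permethrin rats and from 11.81 through 11.91 to 12.03 in vehicle rats. The deltamethrin and permethrin groups overlapped between 11.89 and 11.95, and the 2 lowest permethrin values were those of replicates 1 and 2. The difference was 0.16 ± 0.043 (SE), 0.33 in array group A and 0.067 in array group B, and 0.075 without the arrays that stand apart.

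Atf4, the transcription factor through which the integrated stress response acts, was 0.23 higher (unadjusted p = 0.00094), with values from 11.17 through 11.29 to 11.51 in deltamethrin rats, 10.58 through 11.14 to 11.26 in permethrin rats and 11.04 through 11.17 to 11.43 in vehicle rats. All 8 deltamethrin rats were above the permethrin mean of 11.07, and the lowest permethrin values, 10.94 and 10.58, were those of replicates 1 and 2. The difference was 0.46 in array group A, 0.091 in array group B and 0.12 without the arrays that stand apart.

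Cux2, a transcription factor of upper-layer cortical neurons, had the largest difference of the 12, at 0.32 (unadjusted p = 0.00146). Deltamethrin rats ran from 8.24 through 8.35 to 8.74, permethrin rats from 7.95 through 8.09 to 8.27 and vehicle rats from 7.98 through 8.26 to 8.59, so the compounds overlapped only between 8.24 and 8.27. It was 0.53 in array group A, 0.20 in array group B and 0.28 without the arrays that stand apart, but the second Cux2 probe set, 1382202_at, differed by only 0.0076.

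Of the other genes of this set, several act in membrane traffic, at synapses or in metabolism. Rab6b, a neuronal GTPase of Golgi transport, was 0.21 higher, Vamp1, the vesicle SNARE synaptobrevin 1, 0.21, and Slitrk1, a postsynaptic adhesion protein, 0.26. Sirpa, the receptor for CD47 that is also found at synapses, was 0.19 higher. Vdac1, the main channel of the outer mitochondrial membrane, was 0.13 higher and Bcat1, the cytosolic branched-chain aminotransferase, 0.15. Epdr1 was 0.20, Shfl 0.18 and Pcnx4 0.21 higher. For 11 of these 12 genes every deltamethrin rat lay above the permethrin mean, Vamp1 being the exception with 7 of 8. Picking genes by low p favors such a count, and its share over all probe sets is not given.

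The genes with the lowest p in the lower direction had, Avp apart, low signals, with means in deltamethrin rats between 4.17 for Trat1, a T cell adaptor, and 7.54 for LOC100909490; the lowest value of any probe set on any array was 3.75. Fut4, a fucosyltransferase of the Lewis x antigen, was 0.25 lower, with values from 5.59 through 5.78 to 5.94 in deltamethrin rats, 5.73 through 6.02 to 6.25 in permethrin rats and 5.66 through 5.89 to 6.24 in vehicle rats. The groups overlapped, and the difference was -0.35 in array group A and -0.18 in array group B. Atp6v1b1, a proton pump subunit best known from kidney, was 0.20 lower, Ros1, a receptor tyrosine kinase, 0.19, Rnls, renalase, 0.19, Aanat, the enzyme that makes the melatonin precursor, 0.19, Tyr, tyrosinase, 0.18, Wdfy3, an autophagy adaptor, 0.18, and Limd1, a LIM-domain adaptor, 0.16. Lurap1 was 0.19 and LOC100909490 0.23 lower, and Trat1 0.093.

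Across these 24 genes the difference was larger in array group A in 22 and larger in array group B in 2, Avp and Rnls, and it had the same sign in both array groups in all 24. Its median size was 0.19 over all rats, 0.37 in array group A, 0.090 in array group B and 0.13 without the arrays that stand apart, where 13 of the 24 had an unadjusted p under 0.05; with any 1 rat left out 23 of the 24 did, and Limd1 did not without permethrin replicate 2 (p = 0.0753). The vehicle mean lay between the 2 compounds in 23 of the 24, Trat1 being the exception. The 24 genes were picked by the lowest p over these same rats. That choice favors a shared sign, a low p with any 1 rat left out, a vehicle mean in between and deltamethrin rats all on 1 side of the permethrin mean. These counts are therefore not separate tests. Of the 24 genes, 12 had further probe sets, 18 in all: 15 of the 18 differed in the same direction as the named one and 1, that of Bcat1, had an unadjusted p under 0.05. Those in the other direction were of Sirpa (1386057_at, -0.10), Vamp1 (1387519_at, -0.038) and Wdfy3 (1389128_at, 0.035). Sirpa and Vamp1 each also had a further probe set in the same direction, at 0.16.

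**Figure D3:**
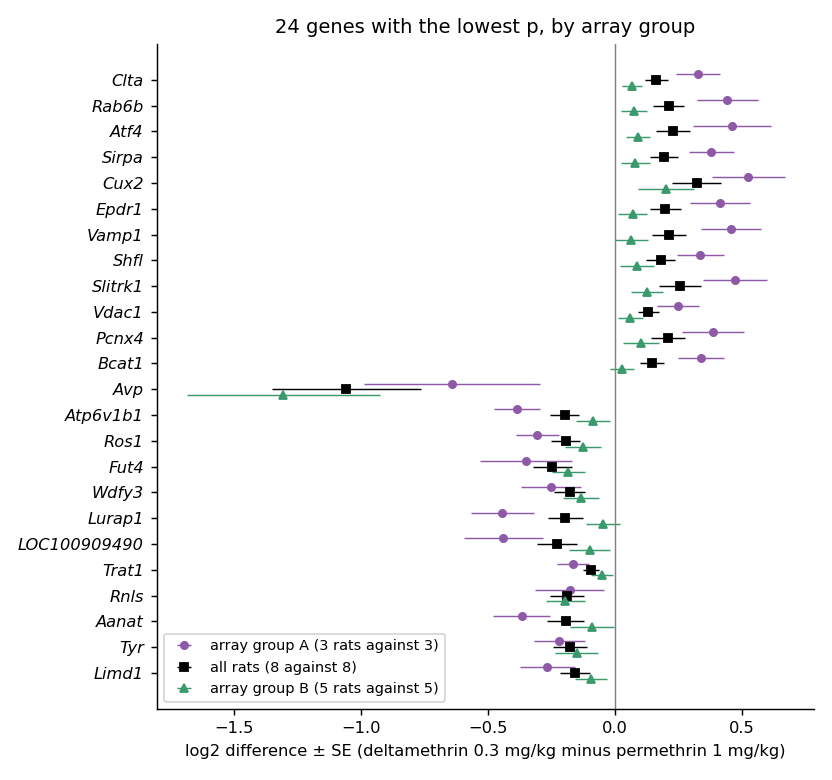
Log2 difference (x axis, deltamethrin minus permethrin, ± SE) of the 24 genes (rows) in array group A (circles, 3 rats against 3), in all rats (squares, 8 against 8) and in array group B (triangles, 5 against 5). In 22 of the 24 genes the array group A value lies farther from 0 than that of array group B.

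Of 9 genes also assayed by qRT-PCR in further rats, 1, Bdnf, had a probe set with an unadjusted p under 0.05. By qRT-PCR the study reported no effect of either compound on Bdnf. It described those values as close to a second array probe set that did not respond to dose. Bdnf, the neurotrophin whose transcription follows neuronal activity, was 0.36 ± 0.16 higher by 1 of its 2 probe sets (95% interval 0.04 to 0.67; p = 0.0262) and 0.0063 higher by the other. The first ran from 6.37 through 6.81 to 7.45 in deltamethrin rats, from 5.81 through 6.66 to 6.96 in permethrin rats and from 6.11 through 6.63 to 7.07 in vehicle rats. The groups overlapped over most of their range, and replicates 1 and 2 of permethrin, at 6.18 and 5.81, held the 2 lowest permethrin values. The difference was 0.81 in array group A, 0.088 in array group B, 0.26 without permethrin replicate 2 (p = 0.0985) and 0.17 without the arrays that stand apart.

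Fos, the classic immediate early gene, was -0.09 (95% interval -0.27 to 0.09) by 1 probe set and 0.63 (-0.07 to 1.32) by the other, 1375043_at. By the second it ran from 5.71 through 6.90 to 8.87 in deltamethrin rats, from 5.49 through 6.37 to 7.15 in permethrin rats and from 5.72 through 7.07 to 8.50 in vehicle rats. The groups overlapped widely, deltamethrin replicate 7 moved the value most, to 0.36 without it, and permethrin rats were 0.79 lower than vehicle rats (unadjusted p = 0.0164). Egr1, an immediate early transcription factor, was 0.22 (-0.10 to 0.54), with values from 10.80 through 11.22 to 11.88 in deltamethrin rats, from 10.90 through 11.04 to 11.24 in permethrin rats and from 11.04 through 11.28 to 12.10 in vehicle rats. Permethrin rats filled a narrow band that lay within the deltamethrin range, and the difference was 0.59 in array group A and 0.00068 in array group B. By the study's qRT-PCR in further rats at these doses, both transcripts had lower means after deltamethrin than after permethrin, each relative to its own controls. That is opposite in direction to 1375043_at and to Egr1 on the arrays. The study marked neither as different from control at these doses. It saw little likeness between qRT-PCR and arrays for these genes at lower doses.

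The other 6 genes of this group differed by at most 0.21. Gpd1, glycerol-3-phosphate dehydrogenase, was -0.21 (95% interval -0.65 to 0.23), Hspb1, a small heat shock protein, -0.16 (-0.49 to 0.17), Fkbp5, a glucocorticoid-induced immunophilin, 0.13 (-0.07 to 0.33) and Ddc, the enzyme that makes dopamine and serotonin, -0.12 (-0.30 to 0.05), each by its brighter probe set. Camk1g, a calcium/calmodulin-dependent kinase, was -0.05 (-0.27 to 0.16) and Rassf5, a Ras effector, -0.0039 (-0.18 to 0.17). For all of these but Gpd1 the 95% interval lay within 0.5 log2 units of 0.

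The gene lists were read against all genes, each by its brightest probe set: of 14217 genes 43.8% had a higher mean after deltamethrin, the median difference was -0.015, and 397 (2.79%) had an unadjusted p under 0.05, of which 267 (1.88%) were higher and 130 (0.914%) lower. Brighter probe sets ran higher in general. Among the brighter 15521 the median difference was 0.028, and of the 440 with an unadjusted p under 0.05, 88.4% were higher. A high share of higher members in a list of bright genes need not be particular to that list. No member of any list passed adjustment. Of the 24 members with an unadjusted p under 0.05, 6 had one whichever 1 rat was left out (Atf4, Vdac1, Vamp1, Kcna1, Cplx1 and Slc16a6) and 4 had one without the arrays that stand apart (Atf4, Vamp1, Slc16a6 and Rgs9).

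Of 26 immediate early genes 16 were higher on average, with a median of 0.048 (0.025 in array group A, 0.038 in array group B and 0.077 without the arrays that stand apart), and 2 had an unadjusted p under 0.05, both higher. Klf10, a transcription factor of the Krüppel-like family, was 0.26 higher, with 8.72 through 8.97 to 9.27 in deltamethrin rats, 8.39 through 8.70 to 8.98 in permethrin rats and 8.47 through 8.95 to 9.29 in vehicle rats. The groups overlapped, every deltamethrin rat was above the permethrin mean, and the difference was 0.33 in array group A and 0.21 in array group B. Nr4a3, an orphan nuclear receptor, was 0.37 higher, with 0.92 in array group A and 0.037 in array group B. Arc, a cytoskeletal protein of active dendrites, was 0.31 higher (95% interval -0.27 to 0.89) and Nr4a1 0.33 (-0.06 to 0.71), neither past an unadjusted p of 0.05.

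Late activity-regulated genes had 14 of 19 members higher on average and a median of 0.13. Besides Bdnf, 3 had an unadjusted p under 0.05: Nrn1, a neurite growth factor, 0.25 higher, Plk2, a kinase of synaptic scaling, 0.19 higher, and Sorcs3, a sorting receptor, 0.18 higher. In array group B these 3 differed by 0.016 or less, and the list's median was 0.35 in array group A, 0.035 in array group B and 0.032 without the arrays that stand apart, where no member had an unadjusted p under 0.05.

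Channels showed the same split. All 8 measured voltage-sensitive sodium channel subunits, the targets of these compounds, had an unadjusted p above 0.05; 6 of the 8 were higher on average and the median was 0.15, with 0.48 in array group A, -0.046 in array group B and -0.057 without the arrays that stand apart. Scn3b, a β subunit, had the largest difference at 0.25 (95% interval -0.02 to 0.52), and the α subunits Scn1a, Scn2a, Scn3a and Scn8a were between 0.086 and 0.24. The lower ones were the β subunit Scn4b, at -0.17, and the α subunit Scn9a, at -0.026 with a low signal near 4.5. Of 22 potassium channel subunits 18 were higher on average (median 0.14) and 3 had an unadjusted p under 0.05: Kcna1, a delayed rectifier of axons, 0.28, Kcnj6, a G protein-gated inward rectifier, 0.32, and Kcnma1, the large-conductance calcium-activated channel, 0.23. In array group B their log2 differences were 0.0076, 0.043 and 0.038 in that order, and the list's median was 0.32 in array group A, 0.029 in array group B and 0.038 without the arrays that stand apart. Of 11 GABA receptor subunits 9 were higher on average and 1, Gabbr2 of the metabotropic receptor, had an unadjusted p under 0.05, at 0.23; it was 0.66 in array group A and -0.02 in array group B. The list's median, 0.12 in all, was 0.47 in array group A, -0.030 in array group B and -0.040 without the arrays that stand apart. Calcium channel subunits (12 of 14 higher, median 0.10) and glutamate receptor subunits (12 of 20, median 0.060) had no member at that level. Their medians were 0.24 and 0.15 in array group A, -0.0090 and -0.044 in array group B, and 0.044 and -0.027 without the arrays that stand apart, with calcium channels given before glutamate receptors.

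Synaptic vesicle release genes had 18 of 20 members higher on average, with a median of 0.12 (0.19 in array group A, 0.015 in array group B and 0.063 without the arrays that stand apart); beside Vamp1, Cplx1, a complexin that clamps the release machinery, was 0.11 higher (unadjusted p = 0.00932). The 6 outer membrane channels and adenine nucleotide or phosphate carriers of mitochondria were all higher on average, by 0.072 to 0.14, and of these Vdac1 had an unadjusted p under 0.05. Their median was 0.26 in array group A, -0.019 in array group B and -0.0071 without the arrays that stand apart. Of 33 respiratory chain subunits 25 were higher on average (median 0.060), and Sdha, the flavoprotein of succinate dehydrogenase, was 0.16 higher (unadjusted p = 0.0174), with 0.34 in array group A and 0.051 in array group B. The list's median was 0.16 in array group A, 0.011 in array group B and 0.014 without the arrays that stand apart.

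Stress, hormone and clock lists held 1 such gene each: Tsc22d1 among 22 glucocorticoid-responsive genes (0.14 higher; list median -0.038), Ahsa1, an activator of Hsp90, among 15 heat shock and chaperone genes (0.14; median 0.13), Atf4 among 18 endoplasmic reticulum stress genes (median 0.070) and Hlf, a clock output factor, among 18 circadian genes (0.23; median 0.063). Tsc22d1 was 0.40 in array group A and -0.01 in array group B, Ahsa1 0.28 and 0.053, and Hlf 0.53 and 0.053, array group A first. The median of the glucocorticoid-responsive genes was -0.079 in array group A, -0.022 in array group B and 0.0021 without the arrays that stand apart. In the same settings it was 0.26, 0.024 and 0.0054 for heat shock and chaperone genes, 0.10, -0.013 and -0.0061 for endoplasmic reticulum stress genes, and 0.14, 0.0005 and 0.028 for circadian genes. Slc16a6, a member of the monocarboxylate transporter family, was 0.26 higher, with 6.35 through 6.71 to 6.95 in deltamethrin rats, 6.23 through 6.41 to 6.68 in permethrin rats and 6.13 through 6.55 to 6.99 in vehicle rats. The groups overlapped, and the difference was alike in array group A (0.28) and array group B (0.25) and was 0.27 without the arrays that stand apart. Rpl30 was the only 1 of 22 cytosolic ribosomal protein genes at that level, at -0.12. Kinases of the calcium/calmodulin family, monoamine genes and metallothioneins with zinc transporters had none.

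**Figure D4:**
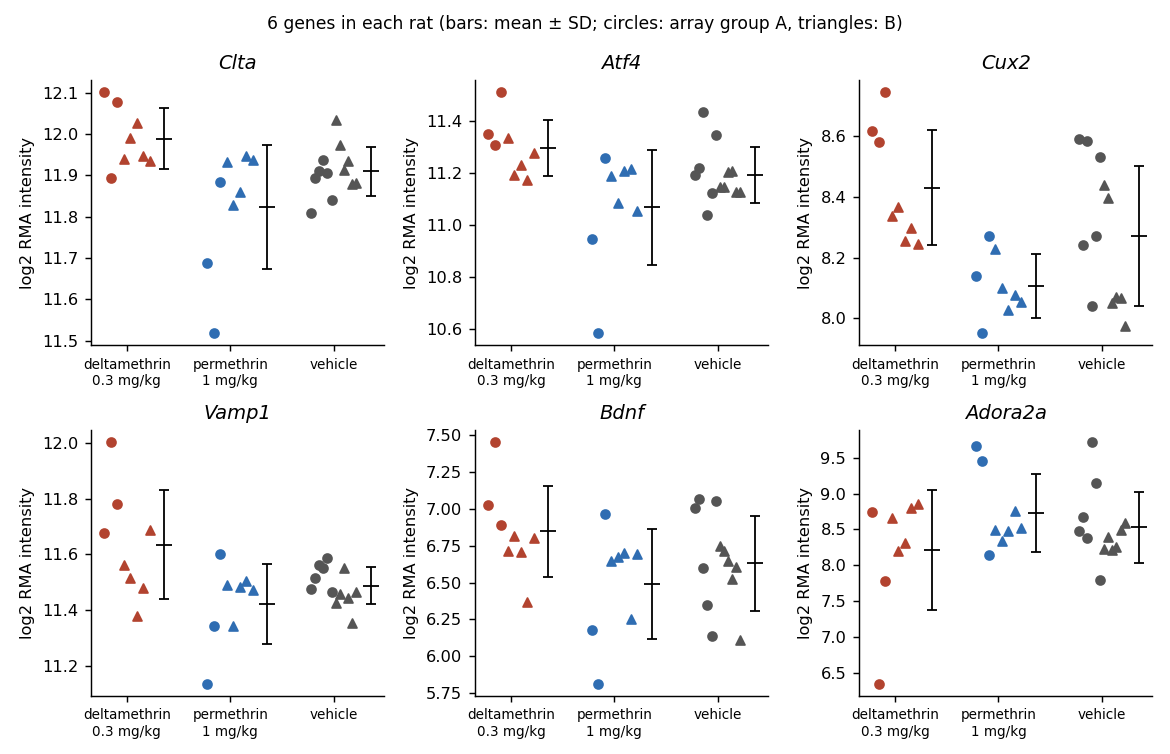
Log2 RMA intensity (y axis) of Clta, Atf4, Cux2, Vamp1, Bdnf and Adora2a in each deltamethrin, permethrin and vehicle rat (points; circles array group A, triangles array group B), with the mean ± SD of each group as bars. The extreme values, such as 10.58 for Atf4 in permethrin replicate 2 and 6.34 for Adora2a in deltamethrin replicate 2, are circles.

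Markers of other cells differed by array group too. Striatal neuron markers, which a cortical dissection can carry, were lower on average in 9 of 9 after deltamethrin, with a median of -0.22, and the median was -0.46 in array group A, 0.031 in array group B and -0.22 without the arrays that stand apart, where Rgs9 had an unadjusted p under 0.05. Adora2a, the adenosine receptor of striatopallidal neurons, ran from 6.34 through 8.49 to 8.85 in deltamethrin rats, from 8.15 through 8.51 to 9.66 in permethrin rats and from 7.80 through 8.44 to 9.72 in vehicle rats. The medians were alike, and the difference was -0.52 (unadjusted p = 0.0468), with deltamethrin replicate 2, at 6.34, and permethrin replicates 1 and 2, at 9.66 and 9.46, as the farthest values; it was -0.26 without deltamethrin replicate 2 (p = 0.27) and 0.044 in array group B. Rgs9, a striatal regulator of G protein signaling, was 0.23 lower (p = 0.012), and 0.13 lower without deltamethrin replicate 2 (p = 0.0922). The mean log2 signal of the 9 markers ran from 8.35 to 9.86 in deltamethrin rats and from 9.56 to 9.96 in permethrin rats, and their summed signal from 5465 to 12977 in deltamethrin rats, from 10680 to 14365 in permethrin rats and from 9436 to 17101 in vehicle rats. The part of striatal tissue in the other differences was not tested.

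Microglia markers were lower on average in 8 of 9 (median -0.13, with -0.29 in array group A, 0.0017 in array group B and 0.011 without the arrays that stand apart), the exception being Ctss, cathepsin S, which was 0.14 higher (unadjusted p = 0.0495). Excitatory cortical neuron markers had 7 of 9 higher on average (median 0.082) and inhibitory neuron markers 8 of 9 (median 0.017), with no member at an unadjusted p under 0.05 in either. Oligodendrocyte markers had a median of -0.0058 over all rats and none at that level, but -0.19 with 4 members lower at an unadjusted p under 0.05 without the arrays that stand apart. Otx2, of choroid plexus, was 0.15 lower (unadjusted p = 0.0288); astrocyte, oligodendrocyte precursor, endothelial and mural, meningeal and blood cell markers had none.

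**Figure D5:**
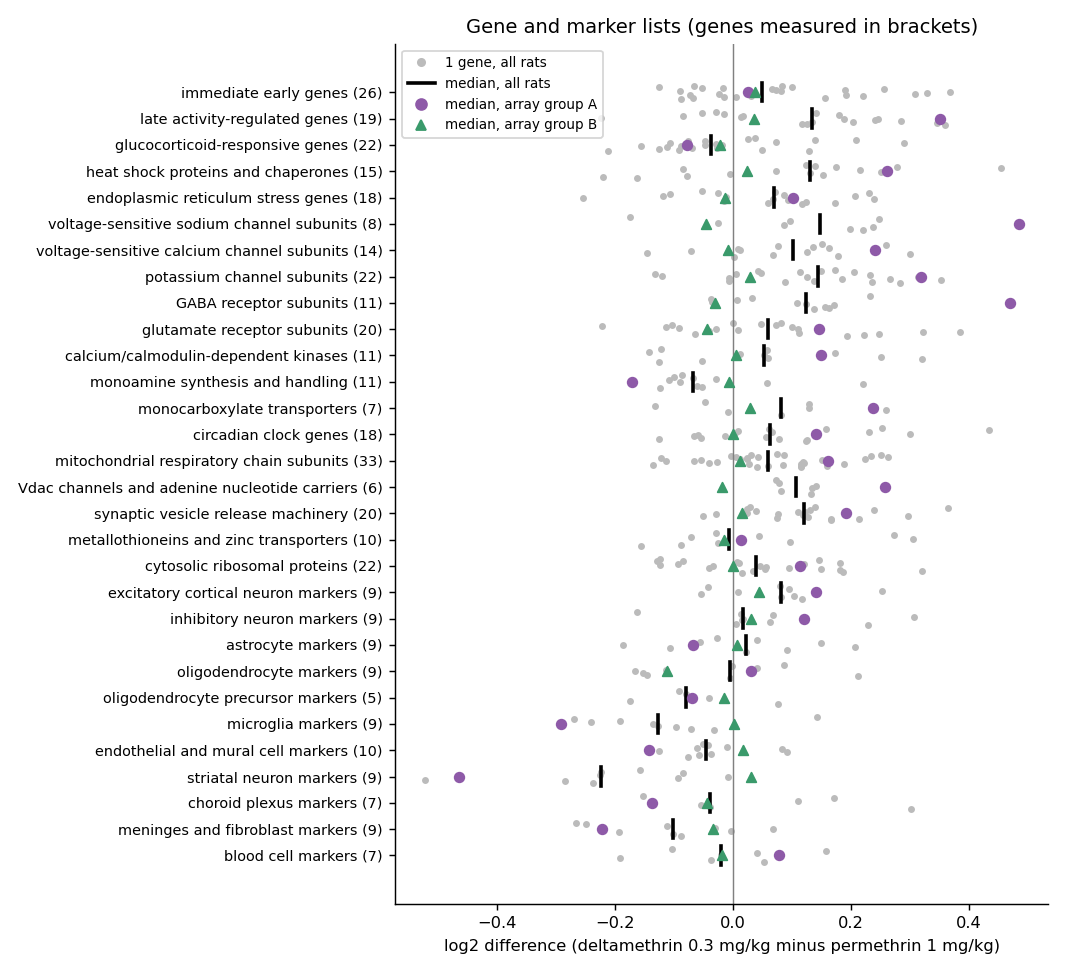
Log2 difference (x axis, deltamethrin minus permethrin) of each measured gene (gray points), with the median over all rats (bar), in array group A (circle) and in array group B (triangle), for each gene or marker list (rows). The circles spread from -0.46 for striatal neuron markers to 0.48 for sodium channel subunits, while the triangles stay between -0.11 and 0.044.

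Each compound was also set beside the 12 vehicle rats, which serve as controls to both, so these 2 comparisons are not independent of each other. Against vehicle, 0 of 31042 probe sets (0%) passed adjustment for 0.3 mg/kg deltamethrin and 0 (0%) for 1 mg/kg permethrin. At an unadjusted p under 0.05 there were 233 (0.751%) for deltamethrin, 111 higher (0.358%) and 122 lower (0.393%), and 367 (1.18%) for permethrin, 155 higher (0.499%) and 212 lower (0.683%). The number for deltamethrin was 430 without vehicle replicate 7, 354 without vehicle replicate 8 and 423 without deltamethrin replicate 7. That for permethrin was 235 and 733 without vehicle replicates 1 and 4, 226 and 221 without permethrin replicates 1 and 2, and 954, 656 and 663 without permethrin replicates 3, 6 and 8. For the late activity-regulated genes the median difference from vehicle was 0.097 after deltamethrin and -0.065 after permethrin, and for potassium channel subunits 0.063 and -0.068 in the same order. Over the 19 gene lists these medians ran from -0.054 to 0.10 after deltamethrin and from -0.070 to 0.010 after permethrin. The values after permethrin were not particular to these lists, with -0.069 for heat shock and chaperone genes and -0.065 for circadian genes. All of these medians include the arrays that stand apart.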

How the data were processed

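The authors hybridized frontal cortex RNA of single rats to Affymetrix Rat Genome 230 2.0 arrays and deposited log2 values after robust multi-array average (RMA) background correction, quantile normalization and summarization per probe set; quantile normalization forces nearly equal array medians (7.07 to 7.20 in the 3 groups compared), so a shift of all transcripts cannot be seen. No scanner files, detection calls or scan dates were used here. All 60 arrays and 7 groups entered 1 limma fit (version 3.58.1, R 4.3.3) with moderated variances, and p-values were adjusted by Benjamini-Hochberg over 31042 probe sets, with no filter. The fit was also run on simulated data with independent noise. These held no array groups and no arrays that stand apart, so that run does not test the fit under the array structure described here. Gene names came from the platform annotation: 20826 probe sets carry 1 symbol, 436 several and 9780 none. Named genes were the 12 with the lowest p in each direction, the 9 genes measured by qRT-PCR, list members with an unadjusted p under 0.05, and probe sets without overlap; a list member was read by its brightest probe set. Members, lists and tests were chosen with earlier results of these data known. Array groups came from the widest gap on the first 2 principal components. Alternatives (other sample sets, blocks, covariates, normalizations, weights, probe set filters and each rat left out) are given at the end. The replicates are separate rats, and 8 per group set the precision.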

Additional observations from a re-analysis of the deposited data

Results flagged for a closer look

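Of 70 groups of 8 rats examined over 35 probe sets, 4 held a rat far from the other 7 by Dixon's criterion, where chance alone flags about 1 in 20 groups. Replicate 2 of permethrin was low for Atf4 (10.58, the next lowest 10.94) and high for Limd1 (6.838, the next highest 6.469) and Camk1g (10.04, the next highest 9.49); this array is one of those that stand apart. Replicate 5 of deltamethrin was low for Tyr (5.005, the next lowest 5.233).

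The difference between the compounds itself differed between array group A and array group B for 4 of 31042 probe sets (0.0129%) after adjustment, and for 4969 (16%) at an unadjusted p under 0.05. These 4 were selected from all probe sets by this test. The unnamed probe set 1393555_at was 1.97 lower after deltamethrin in array group A and 0.39 higher in array group B, a gap of -2.36 (adjusted p = 0.0279). Myo15b, an unconventional myosin, was 0.62 lower in array group A and 0.022 higher in array group B, a gap of -0.64 (adjusted p = 0.0442). Adam22, a synaptic receptor of the LGI proteins, was 1.19 lower in array group A and 0.15 higher in array group B, a gap of -1.33 (adjusted p = 0.0498). The unnamed probe set 1396677_at was 0.66 higher in array group A and 0.19 lower in array group B, a gap of 0.85 (adjusted p = 0.0498). In each of the 4, the mean farthest from the others was that of permethrin rats of array group A. It was 10.56 for 1393555_at, 7.35 for Myo15b, 8.16 for Adam22 and 6.11 for 1396677_at. The other means ran from 8.08 to 8.59, 6.73 to 6.76, 6.74 to 6.97 and 6.66 to 6.85, in that order. Of the 3 permethrin arrays of array group A, 2 stand apart. The part of those arrays in these gaps was not tested.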

How the results depend on the processing

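The count of probe sets past adjustment was 0 under every alternative but 1, array group A alone, where it was 1. The count at an unadjusted p under 0.05, 747 in all, was 415 from only the 16 arrays, 1244 when array group was a block, 1526 when the first component entered as covariate, 3550 in array group A, 390 in array group B, 440 among the brighter 15521 probe sets, 336 after quantile-normalizing the 16 arrays anew and, chosen after seeing the data, 1789 with block and component together; with 1 rat left out it ran from 243 to 1646. Of the 747, 62.9% were higher after deltamethrin, against 46.7% with array quality weights, 88.4% among brighter probe sets, 50.8% in array group B, 52.7% after the new quantile normalization and 53.8% with each array centred on its median. Against vehicle the unadjusted counts, 233 for deltamethrin and 367 for permethrin, were 465 and 988 under the block, 724 and 977 under the component, 1437 and 1092 under both, 92 and 153 among brighter probe sets, and 935 and 1628 under weights, with deltamethrin given before permethrin; without the arrays that stand apart deltamethrin had 456.

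Camk1g (-0.05 in all), Fos (1371283_at, -0.09), Rassf5 (-0.0039), Hspb1 (-0.16), Bdnf (1368678_at, 0.0063), Tsc22d1 (0.14), Gabbr2 (0.23) and Adora2a (-0.52) changed sign in some settings. In array group B, Tsc22d1 was -0.015, Gabbr2 -0.023, Adora2a 0.044 and Bdnf -0.038. Without the arrays that stand apart Tsc22d1 was -0.0065 and Bdnf -0.0017, and with the block as well -0.0037 and -0.0094. Bdnf was also -0.0041 with each array centred on its median, -0.00091 with weights, -0.0051 with block and component, and -0.018 to 0.027 with 1 rat left out. Camk1g was 0.0054 with the component, 0.058 in array group B, 0.031 with weights, 0.023 with block and component, 0.070 without the arrays that stand apart and 0.086 when these were left out with the block, and -0.088 to 0.045 with 1 rat left out. Fos was 0.032 in array group B, 0.019 with weights, and 0.018 and 0.015 without the arrays that stand apart, the second with the block; Hspb1 was 0.024, 0.0018 and, with the block, 0.0051 in the same settings. Rassf5 was 0.031 with the component, 0.046 in array group A, 0.032 with block and component, 0.033 and 0.036 without the arrays that stand apart, and -0.064 to 0.042 with 1 rat left out. The cause was not tested.

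Replicate numbers are shared by the groups but nothing pairs the rats: deviations of same-numbered rats correlated at -0.466 to 0.781, above 0.1 in 6 of 8 pairs, and 3 of 8 deltamethrin and 2 of 8 permethrin arrays correlated best with their own number. With the replicate number as a block, 1070 probe sets had an unadjusted p under 0.05 and 0 passed adjustment; against vehicle the unadjusted counts were 892 for deltamethrin and 2463 for permethrin.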
